A study of Homo sapiens with 6 samples.

Results

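The 6 genes described here encode proteins that liver cells secrete and that act on phospholipid, cholesterol and triglyceride in plasma or on the way to it. They are the secreted phospholipases A2 PLA2G2A, PLA2G12A and PLA2G12B, hepatic lipase (LIPC), lecithin-cholesterol acyltransferase (LCAT) and phospholipid transfer protein (PLTP). They were taken by symbol from a gene table of 11461 entries, where 6 of 6 were found, and they were picked with their vehicle and doxycycline levels in view, so their differences are given as a description without a test. The values come from RNA sequencing of HepG2-hCAR cells, grown from 1 cell of HepG2, an established line from a human liver cancer. Vehicle and doxycycline cells alike carry a lentiviral insert with human CAR (gene NR1I3), a nuclear receptor that controls drug metabolism, under a promoter that doxycycline switches on. The vehicle group has 3 libraries and the doxycycline group, given 1 µg/ml, has 3, all at 72 h, and the question is which transcripts differ once the receptor is induced. NR1I3 was at 3.24 ± 0.290 FPKM with vehicle and 321 ± 8.51 FPKM with doxycycline (mean ± SD, n = 3 libraries per group, as below), a level in which the insert and the cell's own gene are not separated. FPKM is the number of fragments scaled to transcript length and library size, so levels of different genes can be compared only roughly. Cells lacking the insert and given doxycycline are not among the samples analysed here, so what the drug does and what CAR does cannot be told apart, and all values come from 1 clone.

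Phospholipases A2 cut the middle fatty acid from a phospholipid, releasing a free fatty acid and a lysophospholipid. PLA2G2A is a calcium-dependent enzyme of the acute-phase response that also attacks bacterial membranes. PLA2G12A is a distant relative with weak activity, and PLA2G12B is a related protein that lacks catalysis and takes part in loading lipid onto very low density lipoprotein (VLDL) in the endoplasmic reticulum. Hepatic lipase cuts triglyceride and phospholipid in lipoprotein remnants and in high density lipoprotein (HDL). LCAT makes the cholesteryl esters of HDL with apolipoprotein A-I as its activator, and PLTP moves phospholipid between lipoproteins.

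With doxycycline 5 of the 6 transcripts were lower, without overlap between the groups, and PLA2G12A was level. Among the 10469 genes with a mean of at least 1 FPKM, all 6 included, 47.1% had groups without overlap, 22.3% lower and 24.8% higher. Because the members were picked on this contrast, nothing is read from their count. The size ran from 4.68-fold lower for PLA2G12B and 2.50-fold for PLA2G2A to 1.69-fold for LIPC, 1.67-fold for PLTP and 1.60-fold for LCAT. Fold here is the ratio of mean FPKM.

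PLA2G2A (ENSG00000188257, chromosome 1, 20301924 to 20306909 of GRCh37, minus strand) was the most abundant of the 6 transcripts by far. Its vehicle libraries 1 to 3 had 504, 460.5 and 459 FPKM, and its doxycycline libraries had 228, 163 and 177 FPKM. The highest doxycycline library was 231 FPKM below the lowest vehicle library, and doxycycline library 1 stood above the other 2. The means were 474 ± 25.2 and 189 ± 34.2 FPKM, 60.1% lower with doxycycline. In the vehicle cells PLA2G2A ranked 27 among 11456 genes by mean FPKM, and in the doxycycline cells it ranked 80. It made up 92.7 to 93.4% of the summed FPKM of the 6 genes with vehicle and 90.7 to 92.8% with doxycycline, so it remained the dominant transcript in both groups.

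PLA2G12B (ENSG00000138308, chromosome 10, 74694928 to 74714536, minus strand) had close replicates and, relative to their range, the widest separation of the 6. Its FPKM was 15.8, 15.3 and 15.9 with vehicle and 3.48, 3.26 and 3.32 with doxycycline. Any doxycycline library was 4.40-fold to 4.88-fold below any vehicle library. The means were 15.7 ± 0.333 and 3.35 ± 0.114 FPKM, and 21 of the 10469 genes tested had a lower ratio. PLA2G12A (ENSG00000123739, chromosome 4, 110631145 to 110651233, minus strand), the closest relative of PLA2G12B among the 6, was level. It stood at 4.55, 5.09 and 4.84 FPKM with vehicle and 5.01, 4.91 and 4.75 FPKM with doxycycline, so that the doxycycline range lay within the vehicle range. The ratio of its means was 1.01. The ratio of PLA2G12B to PLA2G12A was thus 3.26 ± 0.237 in the vehicle libraries and 0.686 ± 0.0183 in the doxycycline libraries, an exchange of rank between the paralogs.

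LIPC (ENSG00000166035, chromosome 15, 58702768 to 58862042, plus strand) was at 5.33, 4.06 and 4.09 FPKM with vehicle and at 2.53, 2.45 and 2.99 FPKM with doxycycline. Vehicle library 1 was high and doxycycline library 3 was the highest of its group, and the gap between the groups, 1.07 FPKM, was narrower than the range of the vehicle libraries (0.838 of it). LIPC means were 4.50 ± 0.726 and 2.66 ± 0.295 FPKM. LCAT (ENSG00000213398, chromosome 16, 67973653 to 67978034, minus strand) had 3.35, 3.18 and 3.84 FPKM with vehicle and 2.46, 1.91 and 2.11 FPKM with doxycycline. The LCAT gap of 0.723 FPKM was 1.09 times its widest within-group range, and the means were 3.46 ± 0.343 and 2.16 ± 0.279 FPKM. PLTP (ENSG00000100979, chromosome 20, 44527260 to 44540794, minus strand) had 6.63, 6.64 and 7.40 FPKM with vehicle and 4.16, 4.24 and 3.94 FPKM with doxycycline. Its groups lay 2.39 FPKM apart, 3.14 times its widest within-group range, with means of 6.89 ± 0.438 and 4.12 ± 0.154 FPKM. The smallest fold between any vehicle and any doxycycline library was 1.36 for LIPC, 1.29 for LCAT and 1.56 for PLTP, against 2.01 for PLA2G2A. The groups of LIPC and LCAT thus lay closest to each other among the 5 lower genes.

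**Figure D1:**
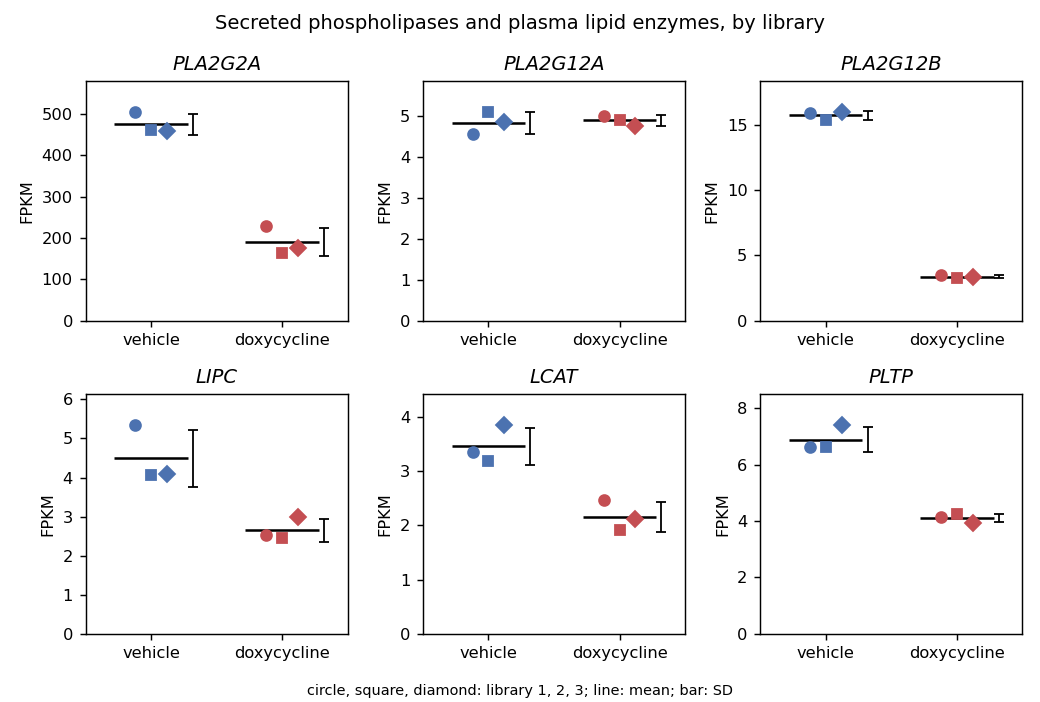
FPKM of the 6 genes in each library (vertical axis from 0, 1 panel per gene), with vehicle in blue, doxycycline in red, lines for the mean and bars for the SD. PLA2G12B has means of 15.7 and 3.35 FPKM with little scatter, LIPC shows 1 high vehicle library (5.33 FPKM), and the points of PLA2G12A overlap.

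The order of the levels changed between the groups. With vehicle it was PLA2G2A, PLA2G12B, PLTP, PLA2G12A, LIPC and LCAT, and the ranges of neighbours overlapped only for PLA2G12A and LIPC. With doxycycline it was PLA2G2A, PLA2G12A, PLTP, PLA2G12B, LIPC and LCAT, and only LIPC and LCAT overlapped. PLA2G12B went from the second place to the fourth and PLA2G12A from the fourth to the second. Summed without PLA2G2A, the other 5 transcripts were at 35.4 ± 0.957 FPKM with vehicle and 17.2 ± 0.438 FPKM with doxycycline. The ratio of PLTP to LCAT, both acting on HDL, was 2.00 ± 0.0825 and 1.93 ± 0.270 in the respective groups and overlapped. Of all genes tested, 0.841% had a lower ratio of means than PLA2G2A, 3.25% than LIPC, 3.33% than PLTP and 3.96% than LCAT, while PLA2G12A lay near the middle at 51.5%.

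**Figure D2:**
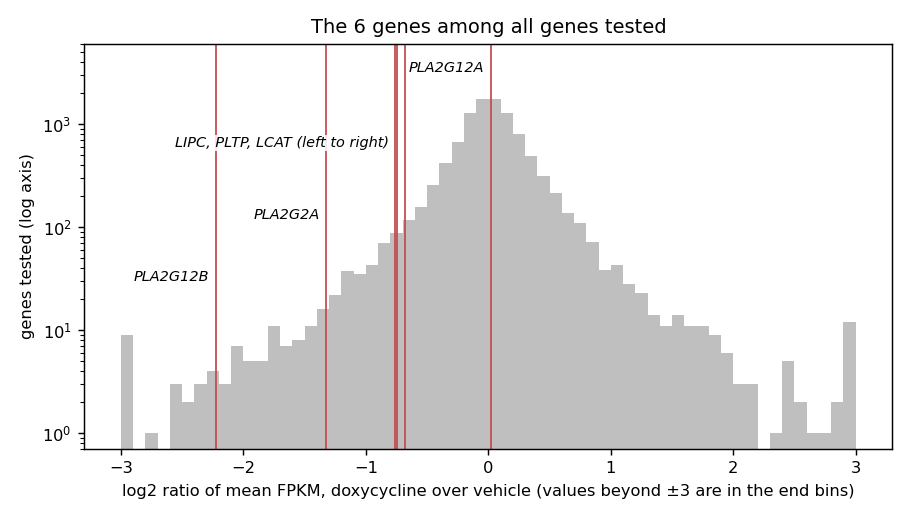
Histogram of the log2 ratio of mean FPKM (doxycycline over vehicle) of the genes tested, on a logarithmic count axis, with a red line at each of the 6 genes. PLA2G12B lies at -2.23 and PLA2G2A at -1.32 in the lower tail, LIPC, PLTP and LCAT lie between -0.76 and -0.68, and PLA2G12A lies at 0.02.

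The stretches upstream of the transcription starts are shown as a description, and their part in the levels was not tested. RefSeq (GRCh38.p14, a different build from the GRCh37 of the expression table) gave a promoter for 5 of the 6 genes, LCAT being the exception. Each window is the 250 bases before a start, read 5′ to 3′ on the strand of the gene, and where RefSeq has several starts the one closest to GENCODE 29 transcript starts is used. Capitals mark exact matches on either strand to any of 6 short motifs, chosen after the sequences had been read, that are spelled out after the windows.
PLA2G2A (chr1:19979619-19979868, minus strand): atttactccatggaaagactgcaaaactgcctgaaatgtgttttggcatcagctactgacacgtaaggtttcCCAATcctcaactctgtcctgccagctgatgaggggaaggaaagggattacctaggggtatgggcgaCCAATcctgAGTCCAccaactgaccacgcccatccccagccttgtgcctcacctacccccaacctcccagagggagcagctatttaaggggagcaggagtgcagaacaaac
PLA2G12A (chr4:109730071-109730320, minus strand): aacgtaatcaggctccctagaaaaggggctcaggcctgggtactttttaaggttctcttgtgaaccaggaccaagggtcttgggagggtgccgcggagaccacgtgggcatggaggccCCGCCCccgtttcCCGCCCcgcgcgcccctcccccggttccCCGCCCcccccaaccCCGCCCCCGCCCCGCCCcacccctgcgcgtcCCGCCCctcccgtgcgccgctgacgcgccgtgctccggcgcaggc
PLA2G12B (chr10:72954807-72955056, minus strand): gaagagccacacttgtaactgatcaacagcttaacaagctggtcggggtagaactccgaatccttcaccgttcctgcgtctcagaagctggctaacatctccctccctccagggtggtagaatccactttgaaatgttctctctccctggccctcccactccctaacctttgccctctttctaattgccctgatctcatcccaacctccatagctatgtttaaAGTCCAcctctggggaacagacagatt
LIPC (chr15:58431741-58431990, plus strand): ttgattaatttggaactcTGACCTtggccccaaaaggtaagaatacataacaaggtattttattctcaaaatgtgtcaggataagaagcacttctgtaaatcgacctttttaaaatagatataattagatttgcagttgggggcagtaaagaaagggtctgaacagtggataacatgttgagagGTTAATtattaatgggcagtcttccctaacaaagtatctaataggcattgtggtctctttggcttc
PLTP (chr20:45912156-45912405, minus strand): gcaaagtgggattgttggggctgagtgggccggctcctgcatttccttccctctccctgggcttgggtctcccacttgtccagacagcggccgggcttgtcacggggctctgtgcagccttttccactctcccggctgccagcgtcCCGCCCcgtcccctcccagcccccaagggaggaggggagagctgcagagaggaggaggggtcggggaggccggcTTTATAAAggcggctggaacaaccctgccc
The letters AGTCCA are part of the longer motif of HNF4, a liver nuclear receptor. They stood in the windows of PLA2G12B (bases 27 to 22 upstream of the start) and PLA2G2A (bases 102 to 97), and 9.63% of all 34943 RefSeq windows of this length hold them. The LIPC window had GTTAAT, part of the motif of HNF1, at 66 to 61 bases upstream, a match found in 6.24% of windows. It also had, on the opposite strand at 232 to 227 bases, the nuclear receptor core AGGTCA, which 12.1% of windows hold. The TATA box letters TATAAA occurred in PLTP on both strands, overlapping each other at 30 to 23 bases upstream, and occur in 10.8% of windows. PLA2G2A had the CCAAT box 2 times, at bases 178 to 174 and 111 to 107, a match held by 32.0% of windows. The GC box GGGCGG, held by 42.5% of windows, had 7 matches in PLA2G12A, all on the opposite strand and 2 of them sharing a base, and 1 in PLTP. PLA2G12A also had the highest GC content, 72.8%, against 66.8% in PLTP, 52.8% in PLA2G2A, 50.4% in PLA2G12B and 36.0% in LIPC, with a median of 58.0% over all windows. A match is a run of letters, not a binding site, and no binding was measured.

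HepG2 cells were checked against liver markers before the related genes were read. All 10 hepatocyte markers listed were in the table, but the level of albumin was low, at 1.77 to 1.93 FPKM with vehicle and 0.272 to 0.461 FPKM with doxycycline, and that of transthyretin (TTR) was 3.90 ± 0.145 and 2.09 ± 0.401 FPKM. The summed level of the 10 markers was 2261 to 2430 FPKM with vehicle and 1222 to 1233 FPKM with doxycycline. It was lower together with the 5 genes, and its part in their levels was not tested. Abundant genes carry most of this sum. The largest differences in FPKM were those of AHSG (551 ± 47.8 and 101.5 ± 8.36 FPKM) and APOB (819 ± 23.6 and 444 ± 41.7 FPKM). AMBP, one of the 10, was level at 214 ± 11.3 and 222.5 ± 6.92 FPKM, and 5 of the 10 (APOA2, APOB, SERPINA1, FGB and HNF4A) are also in lists below. In such bulk RNA, fewer cells of a type and less RNA per cell cannot be told apart. Of 6 endothelial markers none is listed. Of 8 fibroblast and stellate markers PDGFRB and ACTA2 are listed (summed 19.1 to 20.2 and 16.95 to 18.3 FPKM), without a collagen gene. Of 8 leukocyte markers 4 are listed, without PTPRC, and their sum of 545 to 588 and 264 to 278 FPKM was almost all lysozyme (LYZ, 549.5 ± 24.0 and 261 ± 7.33 FPKM). CD68 was lower as well, without overlap, whereas CD14 was higher, at 0.0578 ± 0.0256 and 1.92 ± 0.0768 FPKM. Of 5 bile duct markers 3 are listed, summed to 239 to 248 and 264 to 267 FPKM. KRT19 was higher with doxycycline, at 90.8 ± 2.97 and 133.5 ± 2.37 FPKM, while EPCAM (84.2 ± 3.12 and 73.2 ± 0.787 FPKM) and SOX9 (68.1 ± 0.910 and 59.1 ± 2.84 FPKM) were lower, each without overlap. In each library 11441 to 11453 entries were above 0. Below, a gene is said to have risen or fallen where limma gave an adjusted p below 0.05 over all 10469 genes. Nothing in the labels states that replicate libraries are separate cultures, so these p-values may measure technical spread only.

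VLDL assembly, the step in which PLA2G12B takes part, fell in several of its central genes. Of 29 genes tested on this list 12 fell and 2 rose, against 28.8% of all genes tested that were called in either direction (15.2% higher, 13.6% lower). The list had a median log2 fold change of -0.12, on the log2(FPKM + 1) scale, beside 0.01 for all genes tested. MTTP, which transfers lipid onto apolipoprotein B, fell to 1.07 ± 0.127 FPKM from 9.65 ± 0.462 FPKM, a log2 fold change of -2.37 (SE 0.0655, adjusted p = 1.15e-05). The 3 doxycycline libraries of MTTP, at 1.18, 0.928 and 1.10 FPKM, were all below its vehicle libraries, at 9.75, 9.14 and 10.05 FPKM. APOB, the structural protein of VLDL, fell from 819 ± 23.6 to 444 ± 41.7 FPKM (adjusted p = 3.51e-04), and CIDEC, a lipid droplet protein, from 2.98 ± 0.210 to 0.688 ± 0.136 FPKM. PLA2G12B was 4.68-fold lower, which lies between APOB (1.84-fold) and MTTP (9.03-fold). The 2 genes that rose were VMP1 (32.7 ± 0.157 to 44.5 ± 0.234 FPKM) and TOR1A (8.76 ± 0.0795 to 11.6 ± 0.633 FPKM). TM6SF2, a further lipidation factor, was below the limit for testing at 0.483 ± 0.354 and 0.551 ± 0.117 FPKM, with 0.0768 FPKM in vehicle library 1.

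On the list of HDL formation and remodelling, where LCAT and PLTP act, 13 of 23 genes tested fell and 5 rose. The shares were 56.5% and 21.7%, beside 13.6% and 15.2% of all genes tested, and the median log2 fold change was -0.59. APOA1, the activator of LCAT and main protein of HDL, fell to 85.6 ± 3.41 FPKM from 294 ± 17.2 FPKM, a log2 fold change of -1.77 (adjusted p = 1.15e-05). Its vehicle libraries had 314, 284 and 284.5 FPKM and its doxycycline libraries 88.2, 81.7 and 86.8 FPKM. ABCA1, the transporter that loads cell cholesterol onto apolipoprotein A-I, fell from 10.4 ± 0.531 to 5.22 ± 0.228 FPKM (adjusted p = 1.27e-04). Both partners were lower by a larger factor, 3.44 for APOA1 and 2.00 for ABCA1, than LCAT (1.60) and PLTP (1.67), a difference between genes that was not tested. On the log2(FPKM + 1) scale the largest falls of this list were APOC3, an inhibitor of triglyceride clearance (28.4 ± 1.25 to 2.89 ± 0.176 FPKM), and APOH, a plasma glycoprotein (log2 fold change -1.97, adjusted p = 1.09e-05). FURIN, a protease of the secretory pathway, rose from 12.9 ± 0.492 to 37.3 ± 0.553 FPKM and APOC1 from 69.5 ± 2.34 to 93.1 ± 2.66 FPKM. The number that rose was 3 with the replicate number as a block, and also 3 without vehicle library 2 or 3 or without doxycycline library 2 or 3. CETP, which exchanges lipids between lipoproteins, was not analysed here.

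On the list of lipases, to which LIPC belongs, and of their cofactors and inhibitors, 3 of 14 genes tested fell and 2 rose. Called were 35.7%, beside 28.8% of all genes tested, with a median log2 fold change of 0.02. LIPA, the lysosomal acid lipase, fell from 14.1 ± 0.455 to 9.23 ± 0.948 FPKM, and APOA5, which supports lipoprotein lipase, from 6.998 ± 0.247 to 2.05 ± 0.388 FPKM (adjusted p = 2.41e-04). LIPH, a secreted phospholipase that makes lysophosphatidic acid, rose from 0.981 ± 0.292 to 3.63 ± 0.396 FPKM (adjusted p = 8.63e-04). ANGPTL4, an inhibitor of lipoprotein lipase, was higher at 2.00 ± 0.236 against 1.31 ± 0.134 FPKM, a call that ended without vehicle library 2 or doxycycline library 1 or 3 (adjusted p up to 0.0581), which left LIPH as the 1 gene that rose. The lipases LPL and LIPG were not analysed here. SEL1L, which acts in lipase maturation, did not pass the test, at 23.1 ± 0.801 and 21.5 ± 0.546 FPKM. Nor did LMF2, a relative of the maturation factor LMF1, at 11.5 ± 0.101 and 11.9 ± 0.684 FPKM, and LMF1 itself was not analysed here.

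Of the list of other phospholipases A2 and related hydrolases, 6 of 10 genes tested rose and 1 fell. The shares were 60.0% and 10.0%, beside 15.2% and 13.6% of all genes tested, and the median log2 fold change was 0.17. The 6 that rose, PAFAH1B1, PAFAH1B2, PAFAH2, PNPLA6, PNPLA8 and PLBD2, are not secreted PLA2G enzymes, and the PLA2G genes tested on the list, PLA2G2E, PLA2G15 and PLA2G16, did not pass the test. PNPLA6, a lysophospholipase of nerve and other cells, rose from 5.81 ± 0.229 to 7.62 ± 0.485 FPKM (adjusted p = 6.90e-03). PAFAH2, a cytosolic enzyme that inactivates platelet-activating factor, was higher at 9.79 ± 0.362 against 8.11 ± 0.569 FPKM, and PAFAH1B3 was lower at 8.43 ± 1.14 against 12.04 ± 1.64 FPKM. The call of PAFAH2 ended without vehicle library 1 or 2 or doxycycline library 2 or 3 (adjusted p up to 0.0756), and that of PAFAH1B3 without vehicle library 2 or 3 or doxycycline library 1 or 2 (adjusted p up to 0.1002). The number higher was 3 with the replicate number as a block, 2 without vehicle library 1 or doxycycline library 3, and 3 without vehicle library 2 or doxycycline library 1 or 2. PLA2G2E is the one other secreted group II enzyme in the table and a neighbour of PLA2G2A. Its level was 3.05 ± 0.924 and 1.76 ± 0.178 FPKM, 1.73-fold lower with doxycycline, without overlap between the groups. PLA2G2E did not pass the test (adjusted p = 0.0531), but it did in 5 of 13 alternative fits. Among these were the fits without vehicle library 2 or 3 (adjusted p 0.0407 and 0.0377). The receptor PLA2R1 was not analysed here.

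**Figure D3:**
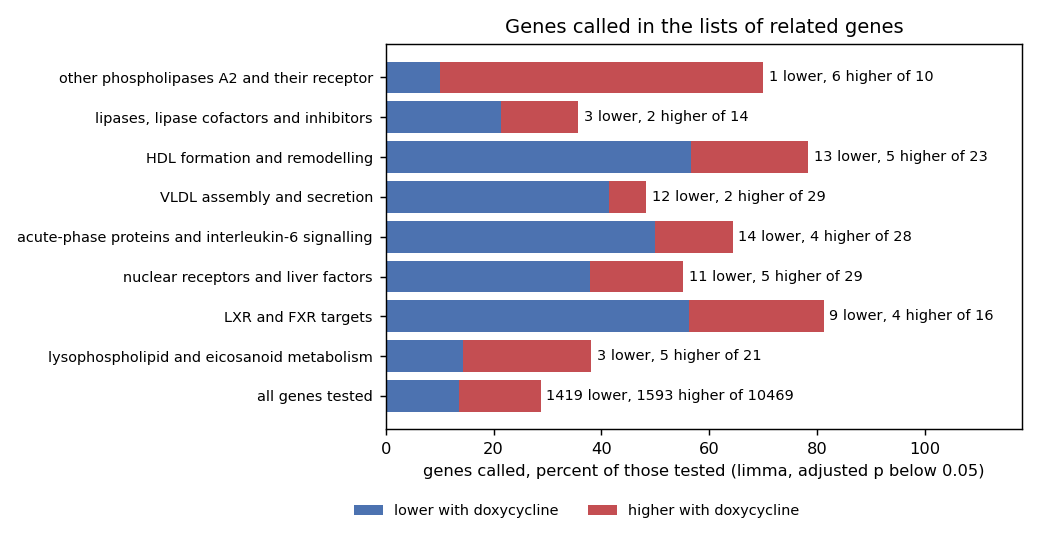
Share of genes called lower (blue) and higher (red) with doxycycline among those tested in each list of related genes, in percent, with the counts printed beside the bars and all genes tested at the bottom. HDL formation shows 13 lower of 23. The list of other phospholipases A2 and related hydrolases shows 6 higher of 10, and these 6 are not PLA2G genes.

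Acute-phase proteins, the group to which PLA2G2A belongs, fell as well, with 14 of 28 genes tested lower and 4 higher and a median log2 fold change of -0.26. FGG, the fibrinogen gamma chain, fell from 99.1 ± 2.39 to 46.4 ± 0.6005 FPKM (adjusted p = 1.09e-05). FGA, the alpha chain, was at 76.5 ± 29.1 and 25.8 ± 1.08 FPKM, and its call ended without doxycycline library 1 (adjusted p = 0.0505). The inflammatory regulators CEBPB and NFKBIA rose, from 36.4 ± 0.657 to 46.8 ± 3.27 FPKM and from 18.1 ± 1.23 to 27.4 ± 2.70 FPKM. Of the 14 that fell, 12 encode secreted plasma proteins, and the other 2, named after their values were seen, are regulators, SOCS1 (2.63 ± 0.435 to 1.11 ± 0.0498 FPKM) and CEBPD (14.9 ± 0.504 to 12.3 ± 0.841 FPKM). STAT3, the factor downstream of interleukin-6, did not pass the test, at 8.24 ± 0.174 and 8.90 ± 0.264 FPKM. The number higher was 2 without vehicle library 3.

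HNF4A, a nuclear receptor that sustains hepatocyte genes, is among the regulators listed. Its level was 7.63, 7.77 and 8.51 FPKM in the vehicle libraries and 3.65, 4.00 and 8.24 FPKM in the doxycycline libraries, so doxycycline library 3 lay among the vehicle libraries. HNF4A did not pass the test (log2 fold change -0.58, adjusted p = 0.151), but did without doxycycline library 3 (-0.89, adjusted p = 1.42e-03). Of the 29 nuclear receptors and liver factors tested 11 fell and 5 rose (37.9% and 17.2%, beside 13.6% and 15.2% of all genes tested). Their median log2 fold change was -0.22. The number that fell was 7 without vehicle library 2 or doxycycline library 1, and the number that rose was 3 without vehicle library 1 or 3 or doxycycline library 1 and with the replicate number as a block. NR0B2, a repressor, fell from 81.5 ± 4.96 to 40.4 ± 0.774 FPKM and NR2F1 from 6.22 ± 0.0815 to 2.72 ± 0.135 FPKM. PPARD, a fatty acid sensor, rose from 3.72 ± 0.330 to 6.41 ± 0.402 FPKM and SREBF2, the regulator of sterol synthesis, from 15.3 ± 0.123 to 19.8 ± 0.776 FPKM.

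PLTP is a known target of the sterol receptors LXR and of the bile acid receptor FXR. NR1H3, which encodes LXR alpha, was lower at 3.42 ± 0.353 against 4.59 ± 0.221 FPKM (adjusted p = 0.0164), a call that ended without vehicle library 1 or 2 or doxycycline library 1 (adjusted p up to 0.0543). Of 16 other LXR and FXR targets tested 9 fell and 4 rose (56.2% and 25.0%, beside 13.6% and 15.2% of all genes tested). Their median log2 fold change was -0.27. This list includes NR1H3 itself, counted among those that fell, and ABCA1, APOA5 and NR0B2, given above. SLC51B, a bile acid exporter subunit and target of FXR, rose from 11.2 ± 1.14 to 40.4 ± 2.38 FPKM (adjusted p = 4.22e-05), and VLDLR from 0.558 ± 0.0573 to 1.53 ± 0.0846 FPKM. The members of this list thus did not share a direction. The number that rose was 2 without vehicle library 3 or without any 1 of the 3 doxycycline libraries. FXR itself, NR1H4, was not analysed here.

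**Figure D4:**
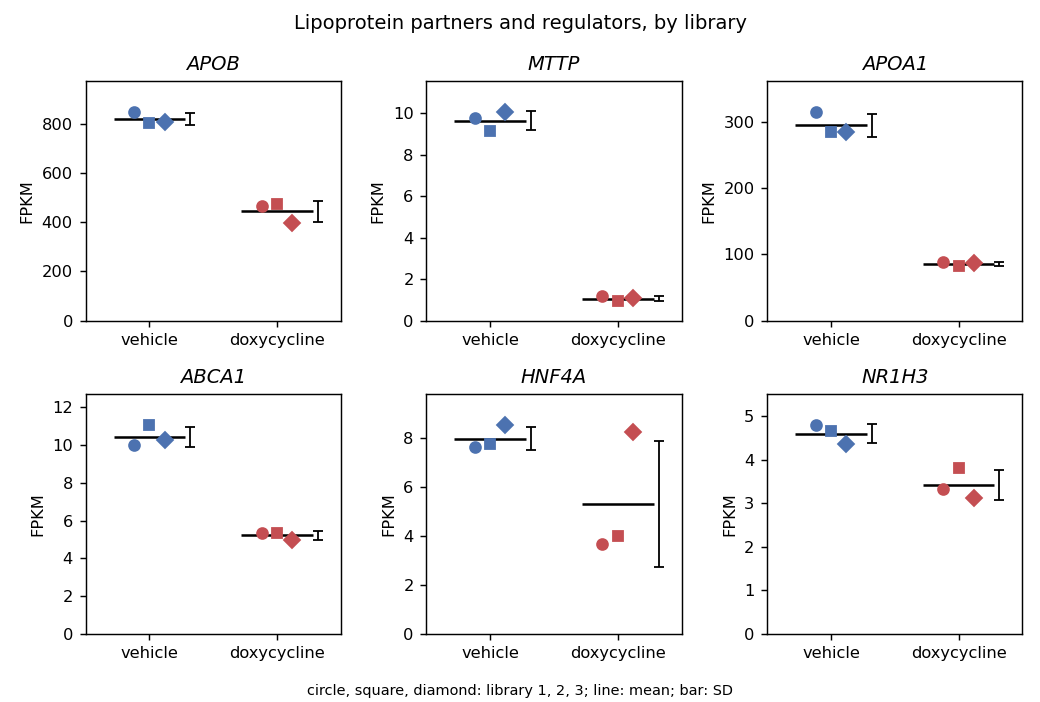
FPKM in each library (vertical axis from 0) of 4 lipoprotein genes and 2 nuclear receptors, with vehicle in blue, doxycycline in red, lines for the mean and bars for the SD. MTTP drops to about 1.07 FPKM in all 3 doxycycline libraries, whereas HNF4A shows 8.24 FPKM in doxycycline library 3 beside 3.65 and 4.00 FPKM in the others.

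Of 21 genes tested that use the products of phospholipase A2, lysophospholipids and arachidonic acid, 5 rose and 3 fell (38.1% called, beside 28.8% of all genes tested), with a median log2 fold change of 0.08. GPCPD1, which breaks down glycerophosphocholine, rose from 2.61 ± 0.145 to 5.62 ± 0.0335 FPKM (adjusted p = 9.28e-05). PTGR1, which inactivates eicosanoids, rose from 1.84 ± 0.289 to 4.67 ± 0.149 FPKM. EPHX2, the soluble epoxide hydrolase of epoxy fatty acids, fell from 8.84 ± 0.6996 to 4.81 ± 0.297 FPKM and GDPD3 from 4.85 ± 0.490 to 3.05 ± 0.281 FPKM.

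Genes next to the 6 were compared to see whether whole neighbourhoods were lower. Of 65 genes tested whose start lay within 500 kb of a member, 9 fell and 4 rose with 28.8% called among all genes. Around PLA2G2A 1 of 6 tested neighbours was called, and it rose, and around LIPC 1 of 4, which also rose. UBXN10, the nearest listed gene beyond PLA2G2A at higher coordinates but 205669 bases away, rose from 0.833 ± 0.107 to 3.65 ± 0.0937 FPKM (adjusted p = 4.22e-05). PLA2G12A was level between 2 neighbours on its own strand that fell. They were CASP6, 6406 bases away (8.57 ± 0.112 to 6.16 ± 0.365 FPKM, adjusted p = 1.92e-03), and CFI, a complement regulator 10617 bases away (35.8 ± 0.608 to 21.9 ± 0.325 FPKM, adjusted p = 3.74e-05). Beside PLA2G12B, P4HA1 fell from 67.3 ± 4.80 to 53.3 ± 2.28 FPKM and MCU did not pass the test. Next to LIPC, ADAM10 did not pass. POLR2M, the nearest listed gene on the other side of LIPC, starts 627808 bases away and so lies outside the window and the 65 genes counted. It did not pass either, at 6.42 ± 0.271 and 4.65 ± 2.45 FPKM, but did without doxycycline library 2 (adjusted p = 1.05e-03).

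The reads of LCAT and PLTP border on those of other genes. The LCAT gene shares 658 bases with SLC12A4 on the same strand, and how reads there were assigned is not given in the sources used here. SLC12A4 did not pass the test, at 5.60 ± 0.158 and 6.16 ± 0.464 FPKM, and nor did PSMB10 on the other side of LCAT, at 6.54 ± 0.329 and 6.52 ± 1.86 FPKM. PLTP shares 200 bases with CTSA on the opposite strand. Stranded libraries can separate the 2 if the strand is used in assigning reads, and whether it was is not given either. CTSA did not pass the test at 29.5 ± 1.11 and 31.3 ± 0.543 FPKM. PCIF1, on the far side of PLTP, was lower at 11.7 ± 0.499 against 13.2 ± 0.145 FPKM (adjusted p = 0.0319), a call lost both under a replicate block and without any 1 of the 6 libraries (adjusted p up to 0.0867). The number of neighbours that rose was 2 without vehicle library 1 or doxycycline library 2 or 3. The number that fell was 5 with the replicate number as a block and without vehicle library 1.

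**Figure D5:**
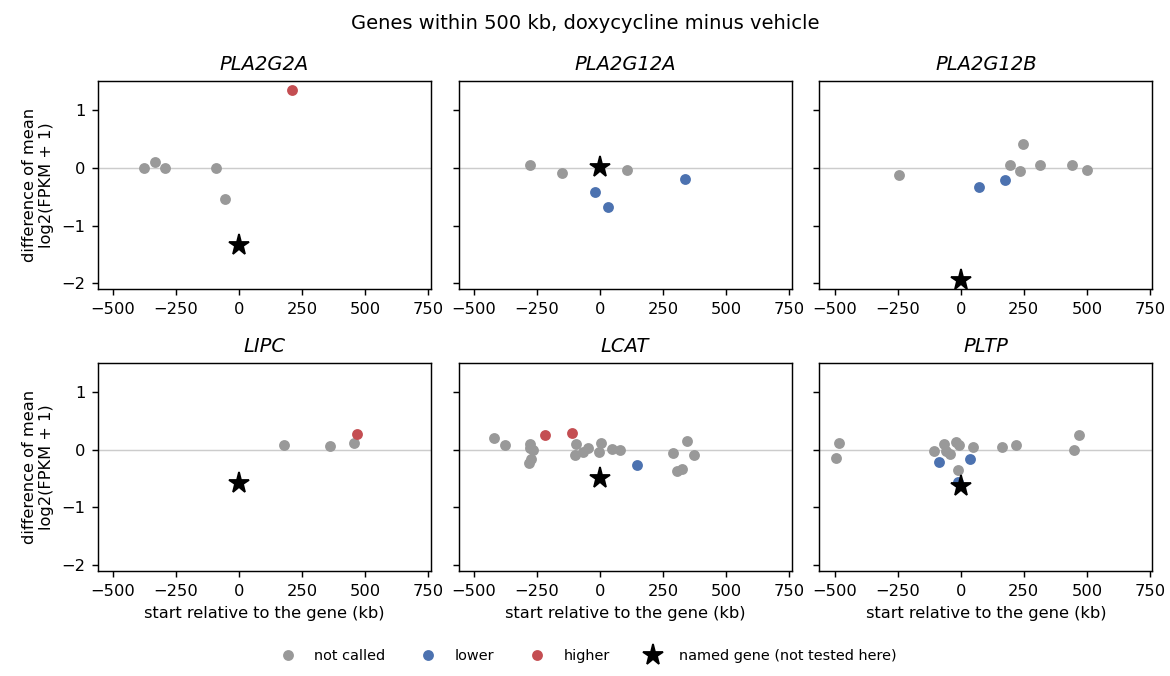
Difference of mean log2(FPKM + 1), doxycycline minus vehicle, of genes starting within 500 kb of each of the 6 genes, against the distance of their start in kb. Black stars mark the 6 genes themselves, and most neighbours lie close to 0, with UBXN10 at 1.35 and CFI at -0.68 as the widest.

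For each of the 6 the genes with the most similar profile over the 6 libraries were ranked by Pearson correlation of log2(FPKM + 1), a description in which all points share the same 2 groups. The correlation takes no account of the size of a difference. For PLA2G2A, 2.50-fold lower, the genes were COQ8B (r = 0.9997, 1.12-fold lower), RXRA (0.999, 1.435-fold) and BCAM (0.997, 1.94-fold). For PLA2G12B the genes were TCEA3 (0.9998), CDC25C (0.9998) and ITIH2 (0.9997). RXRA, the partner with which CAR and LXR bind DNA, had 5.47 ± 0.0965 and 3.81 ± 0.224 FPKM. LIPC was most like ACOT13 (0.999), NPM3 (0.998) and POLR3D (0.992), LCAT like YWHAE and PLEKHA7 (0.996 each) and POU5F1 (0.995), and PLTP like SOX12 (0.997), ANAPC1 and GLDC (0.996 each). PLA2G12A, which does not follow the groups, was most like ZNF449 (0.982), AFG3L2 (0.981) and SPCS3 (0.978). Such likeness was common for the 5 lower genes, since 747 genes exceeded a correlation of 0.95 with PLA2G12B, 612 with PLTP, 597 with PLA2G2A, 204 with LIPC and 180 with LCAT, against 9 with PLA2G12A.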

How the data were processed

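RNA sequencing libraries of polyadenylated RNA, stranded by dUTP per the labels' protocols, were compared between 3 vehicle and 3 doxycycline samples of HepG2-hCAR cells. The deposited values are FPKM computed by the authors, 1 column per library. The submitters' processing notes name FastQC, cutadapt, HISAT2, StringTie and GRCh37, and versions and options are not given in the sources used here. All 11461 entries are protein coding and the larger group mean is at least 0.500 FPKM, so weaker genes were not analysed here. FPKM sums were 204318 to 209372 per library and depth is unknown, so no counting interval is given.

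Of entries that share a symbol (5 symbols) the one with the highest mean was used, leaving 11456 genes. The 10469 with a mean FPKM of at least 1 were tested, the 6 members among them, with limma 3.58.1 (R 4.3.3) on log2(FPKM + 1), group as the only term, with a variance trend, two-sided, and Benjamini-Hochberg adjustment over all genes tested. A gene rose or fell at an adjusted p below 0.05. The members and the 8 lists of related genes were chosen with earlier results of these data known, and tests of the lists are not independent support. Named from each list were the called genes with the largest change, up to 2 in each direction, with 13 genes fixed by name, the nearest listed neighbours and the 3 most similar genes of each member. Others are given for context or identified as chosen after their values were seen. Alternatives changed the pseudocount (0.1, 0.5), the filter (none, or a mean FPKM of 5), the scaling (median-ratio, quantile), the variance trend, the threshold (0.01), the libraries (each left out) and the model (replicate number as a block).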

Additional observations from a re-analysis of the deposited data

How the results depend on the processing

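The 6 members kept their log2 ratio of mean FPKM within the spread between replicates under median-ratio and quantile scaling, within-number ratios and summed entries. Leaving out 1 library at a time gave -1.48 to -1.23 for PLA2G2A, -2.25 to -2.21 for PLA2G12B, -0.85 to -0.62 for LIPC, -0.78 to -0.60 for LCAT, -0.77 to -0.69 for PLTP and -0.02 to 0.06 for PLA2G12A, the 1 member whose sign changed. Both scalings shifted the median of all genes by less than 0.1 on the log2 scale. The number called, 3012, was 2309 to 2376 without 1 library (1186 to 1271 higher, 1066 to 1123 lower) and 1636 at an adjusted p below 0.01 (875 higher, 761 lower). PSMB10, which did not pass the test, had log2 fold changes of -0.225 to 0.092 without 1 library, and its sign changed without vehicle library 1 (0.004) or doxycycline library 1 (0.092) or 3 (0.041).

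The replicate numbers are shared between the groups, but same-numbered libraries did not deviate together (Pearson correlation of deviations 0.015, -0.0321 and 0.0917 for numbers 1 to 3), so they were not treated as pairs. With the replicate number as a block 2343 genes were called. Of the other phospholipases A2 and related hydrolases 3 rose, as did 3 HDL genes and 3 liver factors, and 5 neighbours fell. At an adjusted p below 0.01 by limma, 2 of the other phospholipases A2 and related hydrolases rose and 0 fell, against 1 at 0.05. At the same limit 1 gene of the lipase list and 3 HDL genes rose, and 7 VLDL genes fell. Of the acute-phase genes 2 rose and 9 fell, of the liver factors 2 rose and 7 fell. Of the LXR and FXR targets 2 rose and 5 fell. With a minimum mean FPKM of 5, which leaves LIPH and ANGPTL4 untested, 0 lipase genes rose by limma, 7 HDL genes, 5 liver factors and 5 LXR and FXR targets fell, 3 lysophospholipid genes rose and 2 neighbours rose. Of the other phospholipases A2 and related hydrolases 2 fell with a pseudocount of 0.1 or 0.5, without a filter and with quantile normalization.

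Without 1 library the numbers higher and lower were 2 to 4 and 0 to 1 for other phospholipases A2 and related hydrolases. They were 1 to 2 and 3 for the lipase list, 3 to 5 and 13 for HDL, and 2 to 3 and 8 to 11 for VLDL. Acute-phase genes had 2 to 4 and 11 to 13, and liver factors 3 to 5 and 7 to 10. LXR and FXR targets had 2 to 3 and 7 to 9. Lysophospholipid genes had 4 to 5 and 2 to 3, and neighbours 2 to 3 and 5 to 8. FPKM without depth leaves the precision of weakly expressed genes such as LCAT unknown.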
